A study of Homo sapiens with 8 samples.

Results

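The genes described here encode 10 enzymes grouped under androgen conversion and glucuronidation: UGT2B10, UGT2B11, UGT2B15, UGT2B17, UGT2B28, UGDH, SRD5A1, SRD5A3, HSD17B4 and HSD17B11. They were taken by symbol from a table of 58884 genes, and each symbol matched 1 row. The values are normalized counts, that is, reads per gene scaled for the depth of the library. Of the 10 genes, 9 had a mean of at least 10 normalized counts over the 8 libraries and were tested; UGT2B10 did not reach that level and is reported as not measurable.

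Poly(A)-selected RNA came from C4-2, a prostate cancer line that descends from LNCaP and grows at castrate androgen levels. In 4 libraries the cells had received 1 µM DTHIB, also called E12, for 48 h, and in the other 4 the solvent DMSO for 48 h. Both groups were grown in RPMI 1640 with fetal bovine serum. By the labels, DTHIB inhibits HSF1 directly; HSF1 drives the heat shock response. No label says that replicates came from separate cultures. The p-values therefore rest on the spread among these 8 libraries alone, which may be technical.

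The DTHIB libraries held 27229291 to 29159387 counted reads and the DMSO libraries 29499458 to 30926053. The change was wide: 64.6% of the 17194 tested genes passed limma's test at a Benjamini-Hochberg adjusted p under 0.05, 33.7% lower and 31% higher in DTHIB. Genes are said to have fallen or risen only where they passed it. As a check of the label, all 12 luminal prostate markers were above the test's limit of 10; 8 rose and 4 fell, and the prostate-specific antigen gene KLK3 had 93753 ± 1168 normalized counts in DTHIB and 66682 ± 643 in DMSO (SD, n = 4). Of 6 basal markers 3 were measurable and 2 fell. The summed level of the 6 was 37.5 to 39.9 in DTHIB and 52.6 to 76.6 in DMSO, and KRT5 and TP63 averaged below 1 normalized count in both groups. KRT15, which fell, had 6.09 in DTHIB and 20.3 in DMSO, so it was tested only through its DMSO level. Its log2 fold change was -2.14, and -1.35 with a pseudocount of 5. Of 5 blood cell markers none reached the limit, and their summed level was 8.34 to 13.0 in DTHIB and 9.65 to 12.5 in DMSO.

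In prostate cells, 5-alpha reductases turn testosterone into the stronger androgen dihydrotestosterone, and 17-beta-hydroxysteroid dehydrogenases oxidize or reduce the steroid at carbon 17, which lowers or raises its activity. Enzymes of the UGT2B family then join glucuronic acid to androgens and their metabolites, which makes them water-soluble and unable to bind the androgen receptor. The sugar donor of that reaction, UDP-glucuronate, is made by UGDH. In LNCaP-type cells the genes UGT2B15 and UGT2B17 are known to be repressed by androgens.

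The UGT2B genes lie together on chromosome 4 and are close copies of each other, which bears on how reads can be assigned to them. The first 60 coding bases of the 4 measurable members are shown because they make the pairs among them visible; capitals mark the 9 positions at which the 4 are not identical. The coordinates are GRCh38 with GENCODE release 29.
UGT2B17: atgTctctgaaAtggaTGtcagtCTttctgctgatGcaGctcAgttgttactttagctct
UGT2B15: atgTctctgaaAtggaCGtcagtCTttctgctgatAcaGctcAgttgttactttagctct
UGT2B11: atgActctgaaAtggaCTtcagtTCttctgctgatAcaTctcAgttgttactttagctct
UGT2B28: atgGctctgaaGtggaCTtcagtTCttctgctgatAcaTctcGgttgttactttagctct

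These stretches are at chr4:68568425-68568484 on the minus strand for UGT2B17, chr4:68670559-68670618 on the minus strand for UGT2B15, chr4:69214663-69214722 on the minus strand for UGT2B11 and chr4:69280501-69280560 on the plus strand for UGT2B28. Over the whole coding sequence UGT2B15 and UGT2B17 were 96.5% identical, and UGT2B11 and UGT2B28 were 97.0% identical. Across the pairs identity was lower, 83.9% to 85.0%. UGT2B10 was 95.0% identical to UGT2B11 and 94.3% to UGT2B28. Of all stretches of 50 bases in a UGT2B15 transcript, 27.5% also occurred in UGT2B17. The share found in any other gene was 47.3% for UGT2B11, 35.7% for UGT2B28 and 27.8% for UGT2B17, and it was 0% for HSD17B4. The sources used here do not give how reads that fit several genes were counted, so the division of reads among the UGT2B genes is uncertain and their sum is given beside them.

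RefSeq promoter sequences (GRCh38.p14) were found for 8 of the 10 genes, not for UGT2B17 and UGT2B28. The 250 bases before the start are shown for the 2 measurable UGT2B genes that have one, with capitals for matches, on either strand, to 2 forkhead letter strings, TATTTAC and TGTTTAC, and to the androgen receptor half-site AGAACA.
UGT2B15: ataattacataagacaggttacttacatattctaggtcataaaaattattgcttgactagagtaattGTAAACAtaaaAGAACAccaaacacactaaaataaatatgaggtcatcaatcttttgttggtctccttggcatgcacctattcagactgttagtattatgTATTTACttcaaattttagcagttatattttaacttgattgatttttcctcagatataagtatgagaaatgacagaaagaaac
UGT2B11: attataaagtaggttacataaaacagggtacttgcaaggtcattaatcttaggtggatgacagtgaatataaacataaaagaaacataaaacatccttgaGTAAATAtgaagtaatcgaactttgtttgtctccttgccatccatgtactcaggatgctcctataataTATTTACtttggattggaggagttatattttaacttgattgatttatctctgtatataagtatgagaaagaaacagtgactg

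The window of UGT2B15 is chr4:68670653-68670902 and that of UGT2B11 chr4:69214749-69214998, both on the minus strand. TATTTAC began at position -83 in UGT2B15 and at -82 and -150 in UGT2B11, counted back from the RefSeq start at the end of each window, which differs from the GENCODE start of the gene, and 2.39% of 35116 promoters of this length hold it. UGT2B10 also held it, at -82 and -146. Since the UGT2B genes are close copies, matches that they share are not independent of each other. The string TGTTTAC was at -183 in UGT2B15, against 2.98% of all promoters, and AGAACA at -172, against 12.39%. The 2 arrangements of the heat shock element searched, TTCNNGAA and GAANNTTC, did not occur in the 250 bases of any of the 8 genes, where 6.62% and 5.78% of promoters hold them. The antioxidant response element TGACNNNGC, not marked in capitals, was at -217 in UGT2B11, at -213 in UGT2B10 and at -22 in SRD5A3, against 10.9% of all promoters. The HNF1 half-site GTTAAT, in 6.23% of promoters, was in none of the 8. All strings were searched on both strands, and a match describes letters only.

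Among the 9 tested genes 7 fell in DTHIB, none rose, and 2 did not pass. This count stands against 33.7% of all tested genes that fell. In the same 7 genes every DTHIB library lay below every DMSO library, which was so for 30.8% of tested genes. The genes were chosen with earlier results of these data known. Of the 7, 4 are UGT2B genes, close copies that can share reads. The 2 contrasts therefore describe these genes and test nothing. The median log2 fold change of the 9 was -0.58, and that of all tested genes -0.01. All fold changes are DTHIB minus DMSO on the scale log2(normalized count + 1), which understates changes of low genes, and adjusted p-values are limma's over all tested genes. In bulk RNA fewer expressing cells and less RNA per cell cannot be told apart.

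**Figure D1:**
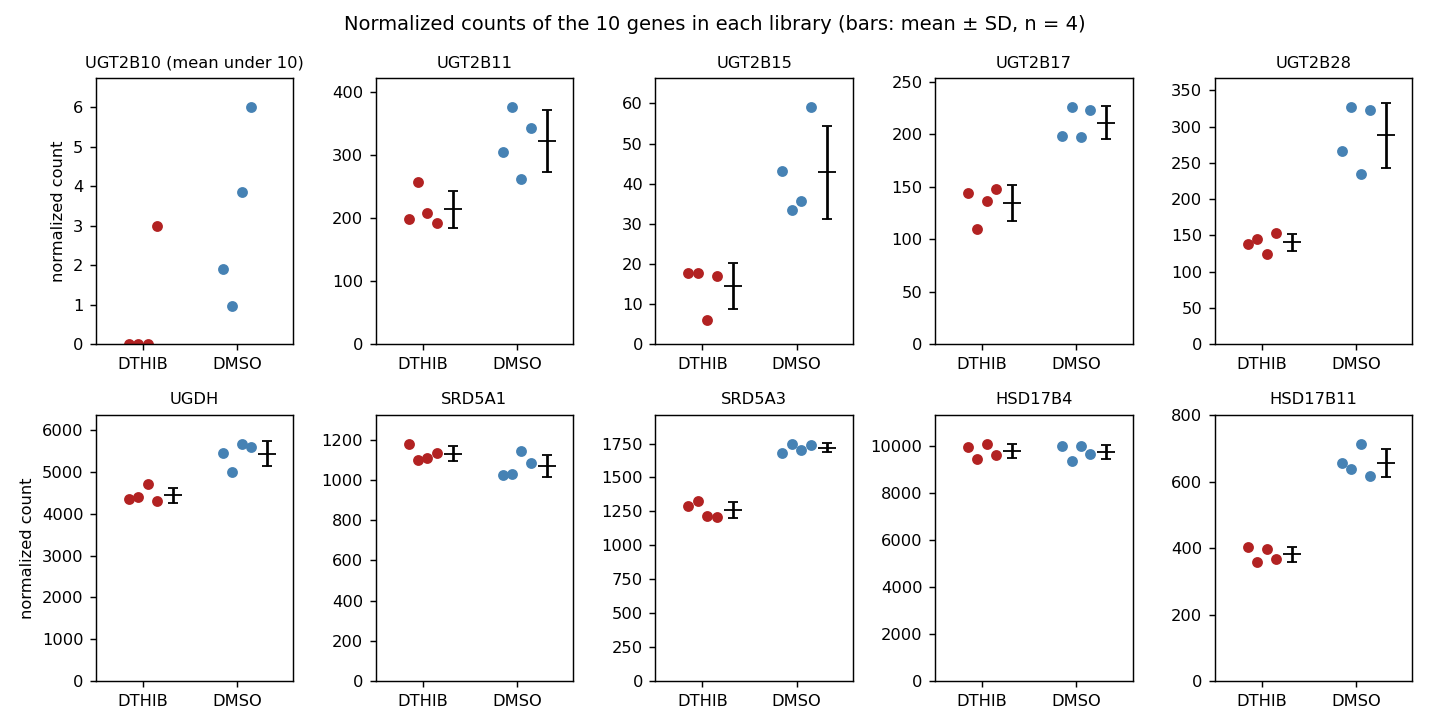
Normalized counts of the 10 genes in each library, with DTHIB left and DMSO right in every panel; points are libraries, bars the mean ± SD of 4 libraries, and each vertical axis starts at 0. The groups do not overlap in UGT2B11, UGT2B15, UGT2B17, UGT2B28, UGDH, SRD5A3 and HSD17B11.

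The 4 measurable UGT2B glucuronosyltransferase genes fell. UGT2B17 (ENSG00000197888, chromosome 4, 68537184 to 68568527, minus strand), which conjugates testosterone and dihydrotestosterone, had 144, 109, 136 and 148 normalized counts in the DTHIB libraries and 198, 226, 197 and 222 in the DMSO libraries. All DTHIB values lay below all DMSO values. The means were 134 ± 17.2 in DTHIB and 211 ± 15.4 in DMSO (SD, n = 4); on the log2 scale the difference was -0.65 (SE 0.10; adjusted p = 2.52e-05 by limma).

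UGT2B15 (ENSG00000196620, chromosome 4, 68646630 to 68670628, minus strand), which conjugates dihydrotestosterone and its metabolite androstanediol, was much scarcer. It had 17.7, 17.7, 5.99 and 17.0 normalized counts in DTHIB and 43.1, 33.5, 35.7 and 59.1 in DMSO. DTHIB replicate 3 stood apart below the other 3 of its group, and the groups did not overlap. The means were 14.6 ± 5.75 in DTHIB and 42.9 ± 11.6 in DMSO (SD, n = 4); on the log2 scale the difference was -1.56 (SE 0.30; adjusted p = 0.000209 by limma), the lowest among the 9 genes. Without DTHIB replicate 3 it was -1.21. These values rest on 57 reads in the DTHIB group and 176 in the DMSO group, so the size of the change is the least precise of the 9.

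UGT2B28 (ENSG00000135226, chromosome 4, 69280499 to 69295050, plus strand), a close relative of UGT2B11 with reported activity on androgens, had 139, 145, 125 and 154 normalized counts in DTHIB and 266, 327, 235 and 324 in DMSO. Its means were 140 ± 12.11 in DTHIB and 288 ± 44.9 in DMSO (SD, n = 4); on the log2 scale the difference was -1.02 (SE 0.11; adjusted p = 2.29e-07 by limma). The groups were widely separated, the highest DTHIB value being 154 and the lowest DMSO value 235.

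UGT2B11 (ENSG00000213759, chromosome 4, 69199951 to 69214731, minus strand), whose substrates are less well known, had 198, 257, 208 and 191 normalized counts in DTHIB and 305, 376, 262 and 343 in DMSO. The highest DTHIB library (257) and the lowest DMSO library (262) nearly touched, and the log2 fold change was -0.58 (SE 0.11; adjusted p = 0.000158 by limma). In both UGT2B11 and UGT2B28 the DMSO libraries ran in the same order, replicate 2 highest and replicate 3 lowest. An antisense gene that overlaps exons of UGT2B11 averaged 0 normalized counts in DTHIB and 1.95 in DMSO.

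UGT2B10 (ENSG00000109181, chromosome 4, 68815993 to 68831196, plus strand), known for joining glucuronic acid to nicotine and other amines, was not measurable. It was listed at 0, 0, 0 and 2.99 normalized counts in DTHIB and at 1.92, 0.957, 3.86 and 6.01 in DMSO. In reads that is 3 in the DTHIB group and 13 in the DMSO group, and no fold change is given.

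Summed over the 5 genes, UGT2B transcripts came to 504 ± 23.4 normalized counts in DTHIB and 866 ± 112 in DMSO (SD, n = 4). The sum does not depend on how reads were divided among the 5, provided that every shared read was kept and went to a single gene. Shared reads that were dropped, or counted for several genes, would change it. It also depends on how reads shared with genes outside the 5 were counted. Such genes include the pseudogenes UGT2B25P, which holds 22.4% of the 50-base stretches of UGT2B11, and UGT2B27P, which holds 15.2% of those of UGT2B10. The log2 fold change of the sum was -0.77 (SE 0.07, adjusted p = 8.02e-08 by limma). By group means the genes had the same order within the sum in both groups. UGT2B11 made up 42.4% ± 4.94 of it in DTHIB and 37.0% ± 1.53 in DMSO. UGT2B28 made up 27.9% ± 1.53 in DTHIB and 33.2% ± 0.94 in DMSO, and UGT2B17 26.7% ± 4.05 in DTHIB and 24.5% ± 1.62 in DMSO. Single libraries did not all keep it: UGT2B17 exceeded UGT2B28 in DTHIB replicate 1 (28.9% and 27.8%) and DTHIB replicate 3 (28.6% and 26.3%). UGT2B15 made up 2.87% ± 1.08 in DTHIB and 4.96% ± 1.13 in DMSO. The shares of UGT2B11, UGT2B17 and UGT2B15 overlapped between the groups.

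**Figure D2:**
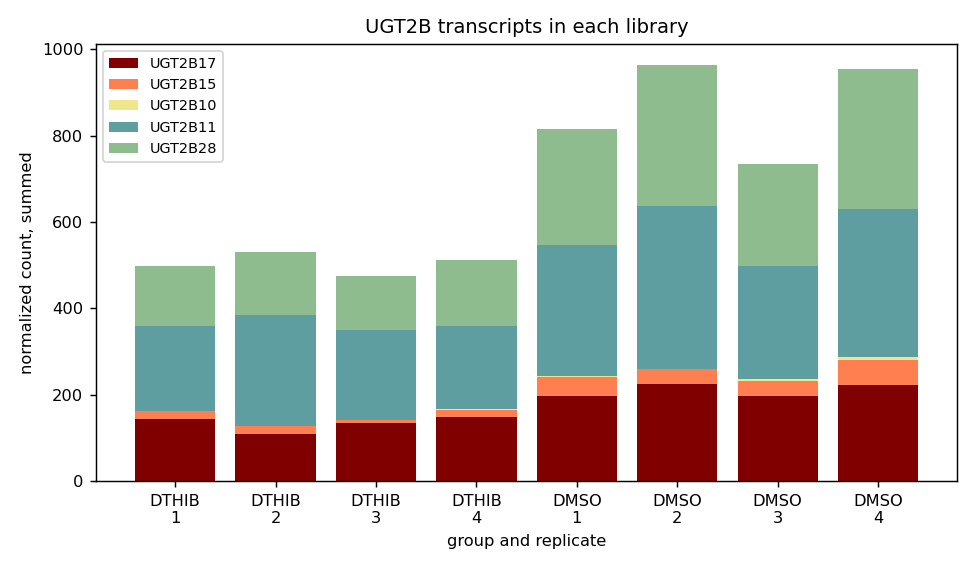
Normalized counts of the 5 UGT2B genes stacked for each library, DTHIB libraries left and DMSO libraries right; the height is their sum. The 4 DTHIB sums lie between 474 and 529 and the 4 DMSO sums between 734 and 964, and UGT2B10 is barely visible.

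UGDH (ENSG00000109814, chromosome 4, 39498755 to 39528311, minus strand), which oxidizes UDP-glucose to UDP-glucuronate, also fell. It had 4355, 4395, 4711 and 4302 normalized counts in DTHIB and 5449, 5011, 5681 and 5595 in DMSO. Its means were 4441 ± 184 in DTHIB and 5434 ± 298 in DMSO (SD, n = 4); on the log2 scale the difference was -0.29 (SE 0.04; adjusted p = 5.59e-06 by limma). The antisense gene UGDH-AS1 overlaps its exons and averaged 158 normalized counts in DTHIB and 98.7 in DMSO. The sources used here do not give the strand setting of the counting, so some reads of such a pair may be placed on either gene.

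Of the steroid reductase genes, SRD5A3 fell and SRD5A1 did not pass. SRD5A1 (ENSG00000145545, chromosome 5, 6633343 to 6674386, plus strand), a 5-alpha reductase that makes dihydrotestosterone in castration-resistant cells, had 1182, 1098, 1112 and 1137 normalized counts in DTHIB and 1026, 1033, 1142 and 1085 in DMSO. The groups overlapped, and its log2 fold change of 0.08 did not pass (95% interval -0.01 to 0.17, limma adjusted p = 0.117). It did pass under quantile normalization, with 0.15, and without DMSO replicate 3, with 0.11 (limma adjusted p = 0.00465 and 0.0409).

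SRD5A3 (ENSG00000128039, chromosome 4, 55346109 to 55373096, plus strand) is named for steroid reduction but is best known for reducing polyprenol to dolichol, the lipid on which N-glycans are built. It had 1291, 1324, 1212 and 1210 normalized counts in DTHIB and 1684, 1749, 1703 and 1742 in DMSO. The values within each group were close together, and the log2 fold change was -0.45 (SE 0.04; adjusted p = 2.07e-08 by limma). Its antisense gene SRD5A3-AS1 had 31.7 normalized counts in DTHIB and 31.0 in DMSO.

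Of the 17-beta-hydroxysteroid dehydrogenases, HSD17B11 fell and HSD17B4 did not pass. HSD17B11 (ENSG00000198189, chromosome 4, 87336610 to 87391386, minus strand), a lipid droplet enzyme that oxidizes androstanediol to androsterone, had 403, 359, 398 and 366 normalized counts in DTHIB and 656, 637, 715 and 617 in DMSO. The gap between the groups was wide, and the log2 fold change was -0.78 (SE 0.06; adjusted p = 5.52e-09 by limma). HSD17B4 (ENSG00000133835, chromosome 5, 119452443 to 119637199, plus strand), a peroxisomal enzyme of fatty acid oxidation that also oxidizes steroids, had 9948, 9429, 10093 and 9618 normalized counts in DTHIB and 9973, 9363, 10002 and 9647 in DMSO. Its log2 fold change was 0.00 with a 95% interval of -0.06 to 0.07 (limma adjusted p = 0.92), which leaves room for a change of a few percent in either direction.

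**Figure D3:**
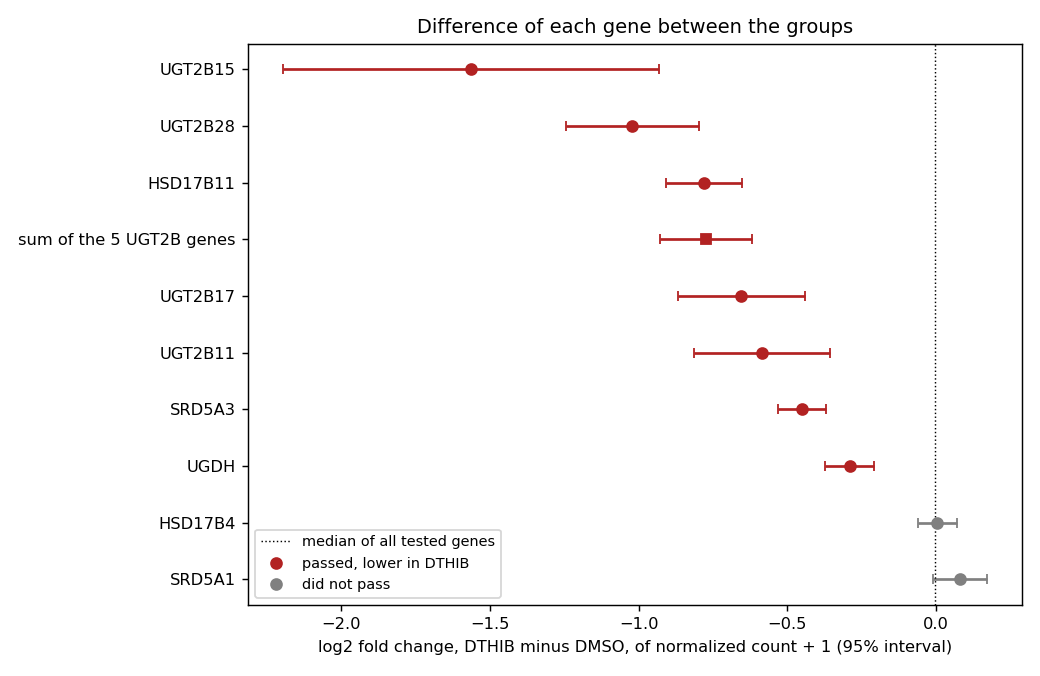
Log2 fold change, DTHIB minus DMSO, of the 9 measurable genes and of the sum of the 5 UGT2B genes, with 95% intervals from limma; red marks those that passed and grey those that did not, and the dotted line is the median of all tested genes. UGT2B15 lies lowest at -1.56 with the widest interval, and SRD5A1 and HSD17B4 have intervals that include 0.

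The authors' deposited table of DESeq2 results lists log2 fold changes of -1.22 for UGT2B15, -0.997 for UGT2B28, -0.77 for HSD17B11, -0.63 for UGT2B17, -0.57 for UGT2B11, -0.45 for SRD5A3, -0.29 for UGDH, 0.08 for SRD5A1 and 0.00 for HSD17B4. In the authors' deposited table UGT2B10 has -0.41 with an adjusted p of 0.202. The order of the genes is the one found here, and the value for the scarce gene UGT2B15 is nearer to 0.

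Whether 2 genes of like function responded unequally was tested on the log2 ratio of the genes in each library, by an exact two-sided permutation test over the 8 libraries, for 9 pairs. The smallest p this design allows is 0.0286, and none of the 9 pairs passed after Benjamini-Hochberg adjustment, where the lowest value was 0.0643. Even at that smallest p, a pair can pass the adjustment over 9 pairs only if most of the others reach it too. Not passing therefore does not show that 2 genes responded equally. Relative to SRD5A1, SRD5A3 was lower in DTHIB than in DMSO by a log2 ratio of -0.53 (SE 0.06, exact p = 0.0286, adjusted 0.0643). HSD17B11 against HSD17B4 differed by -0.78 (SE 0.04) and the UGT2B sum against UGDH by -0.48 (SE 0.14), with the same exact p and adjusted p. In each of these pairs the 4 ratios of one group lay beyond the 4 of the other.

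Within the UGT2B genes, the log2 ratio of UGT2B11 to UGT2B28 was 0.60 ± 0.23 in DTHIB and 0.16 ± 0.05 in DMSO (SD, n = 4). It did not pass (exact permutation p = 0.0286, adjusted 0.0643). Of the 50-base stretches of UGT2B28, 20.7% occur in UGT2B11, so this ratio also depends on how shared reads were counted. For UGT2B15 against UGT2B17 the difference was -0.91 (SE 0.41; exact permutation p = 0.0571, adjusted 0.0857). UGT2B11 and UGT2B17 differed by 0.07 (SE 0.20; exact permutation p = 0.886), and that sign turned without DTHIB replicate 2.

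Compared per kilobase of the annotated transcript, the levels spanned a wide range. In DTHIB the order was HSD17B4 (3392 normalized counts per kb), UGDH (1381), SRD5A3 (301), HSD17B11 (202), SRD5A1 (159), UGT2B11 (102), UGT2B28 (76.6), UGT2B17 (64.6) and UGT2B15 (7.03). In DMSO the levels per kilobase were 3383 for HSD17B4, 1690 for UGDH, 410 for SRD5A3 and 348 for HSD17B11, followed by UGT2B28 (157), UGT2B11 (154), SRD5A1 (150), UGT2B17 (102) and UGT2B15 (20.6). UGT2B28, UGT2B11 and SRD5A1 overlapped in DMSO, and UGT2B28 and UGT2B17 overlapped in DTHIB; the other neighbours in the order were apart in all libraries. SRD5A1 thus stood above the UGT2B genes in DTHIB and among them in DMSO. Per kilobase of all annotated exons, HSD17B4, whose exons add up to 10.664 kb, came below UGDH, at 916 in DTHIB and 914 in DMSO.

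Of the 10 genes 8 lie on chromosome 4 and 2 on chromosome 5. The 7 that fell were the 7 tested genes on chromosome 4, and the 2 that did not pass were those on chromosome 5. On chromosome 4 as a whole 38.4% of 614 tested genes fell, and the median log2 fold change was -0.05. This split was noticed in the values and was not tested.

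Around the UGT2B genes, 87 other annotated genes start within 1 Mb, and 7 of these were measurable. ODAM, a secreted protein of the tooth-forming epithelium, fell to 22.4 ± 0.60 normalized counts in DTHIB, against 82.9 ± 10.4 in DMSO (SD, n = 4; log2 fold change -1.83, limma adjusted p = 1.33e-08). The serine protease gene TMPRSS11E, the nearest measurable gene to UGT2B17 outside the family, had 3.13, 7.30, 0.999 and 4.99 normalized counts in DTHIB and 12.5, 11.5, 31.8 and 19.0 in DMSO, a log2 fold change of -2.02 (limma adjusted p = 0.000583). TMPRSS11E, at 4.10 in DTHIB, was tested only through its DMSO level, and its fold ranged from -2.31 to -1.35 over the alternatives, -1.35 being with a pseudocount of 5. UBA6, a ubiquitin-activating enzyme, fell by 0.21 on the log2 scale (limma adjusted p = 5.43e-05).

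YTHDC1, a reader of methylated adenosine in RNA, varied within both groups, with 285, 31.3, 310 and 181 normalized counts in DTHIB and 443, 561, 232 and 363 in DMSO. Its groups overlapped, and its log2 fold change of -1.34 (limma adjusted p = 0.0245) was -0.59 without DTHIB replicate 2 and did not pass without DMSO replicate 1 (0.0528), without DMSO replicate 2 (0.0681), or with DESeq2 on recovered reads (0.195). UBA6-DT (-0.05), the pseudogene POLR2MP1 (0.00) and the unnamed pseudogene ENSG00000270228 (0.07) did not pass. The neighbours within 1 Mb thus held both fallen genes and genes with no call.

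**Figure D4:**
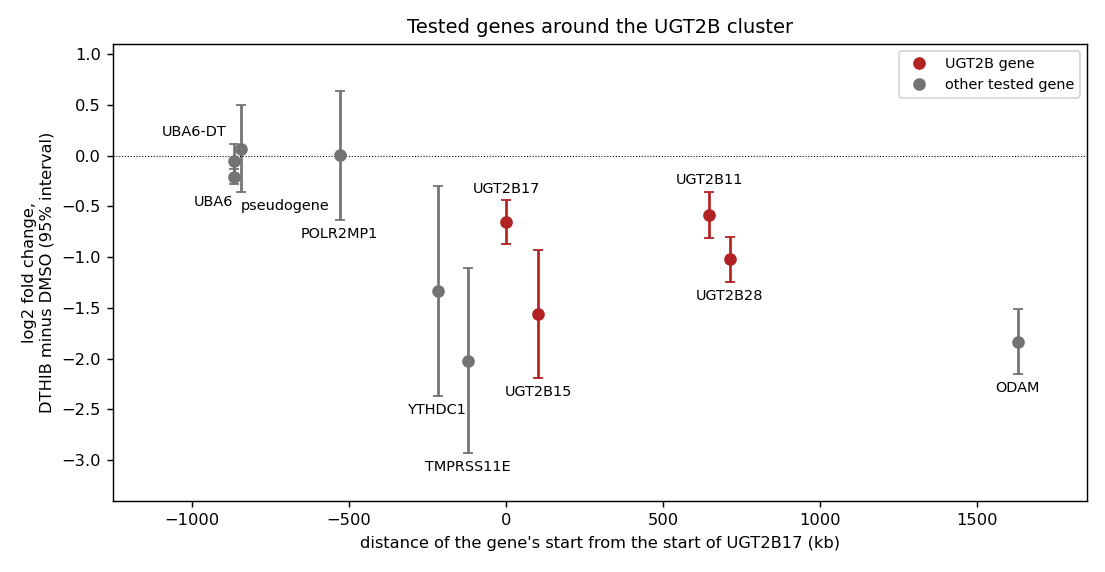
Log2 fold change, DTHIB minus DMSO, with 95% intervals, of the measurable genes that start within 1 Mb of a UGT2B gene, against the distance of their start from that of UGT2B17 in kb; UGT2B genes are red and other genes grey. The 4 red points lie between -1.56 and -0.58, and the grey points between -2.02 and 0.07.

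Other enzymes of androgen synthesis moved both ways. Of 20 listed genes 12 were measurable, 6 fell and 3 rose, the median being -0.09 on the log2 scale. Of all tested genes 33.7% fell and 31% rose, and the counts of this and the following lists stand beside those shares. The lists were not tested as sets. HSD3B1, which converts dehydroepiandrosterone to androstenedione, fell to 6.13 ± 1.91 normalized counts in DTHIB, against 40.2 ± 6.97 in DMSO (SD, n = 4; log2 fold change -2.55). Its DTHIB level lies below the limit of 10, so it was tested only through its DMSO level, and its fold depends on the pseudocount, being -2.02 with a pseudocount of 5. CYP11A1, the side-chain cleavage enzyme that begins steroid synthesis, fell to 99.9 ± 35.9 in DTHIB, against 306 ± 55.1 in DMSO (-1.64). Its electron donor ferredoxin, FDX1, fell (-0.43), and H6PD, which supplies NADPH in the endoplasmic reticulum, rose (0.25). CYP17A1, HSD3B2, HSD17B3 and SRD5A2 were below the limit, each with a mean of at most 1.21 normalized counts in either group.

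Among 27 listed genes for the inactivation, back conversion and sulfation of androgens, 26 matched a row and 18 were measurable. Of the 18, 7 fell and 6 rose, with a median of -0.03, beside 33.7% and 31% of all tested genes. AKR1C1, counted as risen, had 16.8 normalized counts in DTHIB and 7.76 in DMSO. It was thus tested only through its DTHIB level. HSD17B6, which oxidizes androstanediol back to dihydrotestosterone, fell to 97.2 ± 10.6 normalized counts in DTHIB, against 220 ± 7.59 in DMSO (SD, n = 4; log2 fold change -1.17). The short-chain dehydrogenase DHRS7 fell (-0.32), while RDH11, a retinal reductase first found as an androgen-regulated prostate gene, rose (0.57), as did the sulfotransferase SULT1A1 (0.61). Of 17 other UDP-glycosyltransferases 15 matched a row and 1 was measurable: UGT8, which makes galactosylceramide, fell to 762 ± 77.1 in DTHIB, against 1191 ± 109 in DMSO (-0.65). UGT2B7 had a mean of 1.02 in DTHIB and 2.64 in DMSO and UGT2B4 of 3.56 in DTHIB and 2.65 in DMSO. The UGT1A genes share exons with each other, so their low counts cannot be read as levels.

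Genes that make or use UDP-glucuronate were mixed, with 8 lower and 7 higher of 21 measurable and a median of -0.04. Of all tested genes 33.7% were lower and 31% higher. SLC35D1, counted as lower, had 9.39 normalized counts in DTHIB and 19.0 in DMSO, so it was tested only through its DMSO level. PGM2 (-0.24) and the lysosomal beta-glucuronidase GUSB (-0.23), which removes glucuronic acid, fell. The galactose enzyme GALT (0.39), the nucleotide sugar transporter SLC35D2 (0.47) and the phosphoglucomutase PGM1 (0.19) rose. Of the exporters of conjugates, 5 of 8 were measurable, 4 rose and 1 fell, with a median of 0.40. ABCC4 (0.30), ABCC5 (0.68) and ABCC10 (0.43) rose, and ABCG2, which exports sulfate conjugates, fell to 31.9 ± 3.40 normalized counts in DTHIB, against 131 ± 17.7 in DMSO (SD, n = 4; log2 fold change -2.01).

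In the dolichol and N-glycan precursor pathway of SRD5A3, 12 of 22 measurable genes fell and 5 rose, with a median of -0.17. For this list and the next 2, the shares of all tested genes were 33.7% fallen and 31% risen. MPDU1, which lets dolichol-linked sugars be used, fell to 1959 ± 70.1 normalized counts in DTHIB, against 3154 ± 49.8 in DMSO (SD, n = 4, log2 fold change -0.69). The glucosyltransferases ALG6 (-0.49) and ALG8 (-0.45) and the cis-prenyltransferase subunit NUS1 (-0.25) fell too. The 5 that rose were DPM3 (0.22), ALG14 (0.18), DHDDS (0.15), ALG2 (0.13) and ALG13 (0.13). In peroxisomal beta-oxidation, the pathway of HSD17B4, 9 of 21 fell and 7 rose, with a median of -0.05: the peroxisomal transporter ABCD3 (-0.48) fell, and the import receptor PEX7 (0.63) and the thiolase ACAA1 (0.24) rose. Of 14 measurable lipid droplet genes, the setting of HSD17B11, 4 fell and 2 rose, with a median of -0.06; METTL7A (-0.68), PLIN3 (-0.37) and the triglyceride enzyme DGAT2 (-0.25) fell and the coat protein PLIN4 (1.19) rose. HSD17B13, the neighbour and relative of HSD17B11 on lipid droplets, had a mean of 0.261 normalized counts in DTHIB and was listed at 0 in DMSO.

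**Figure D5:**
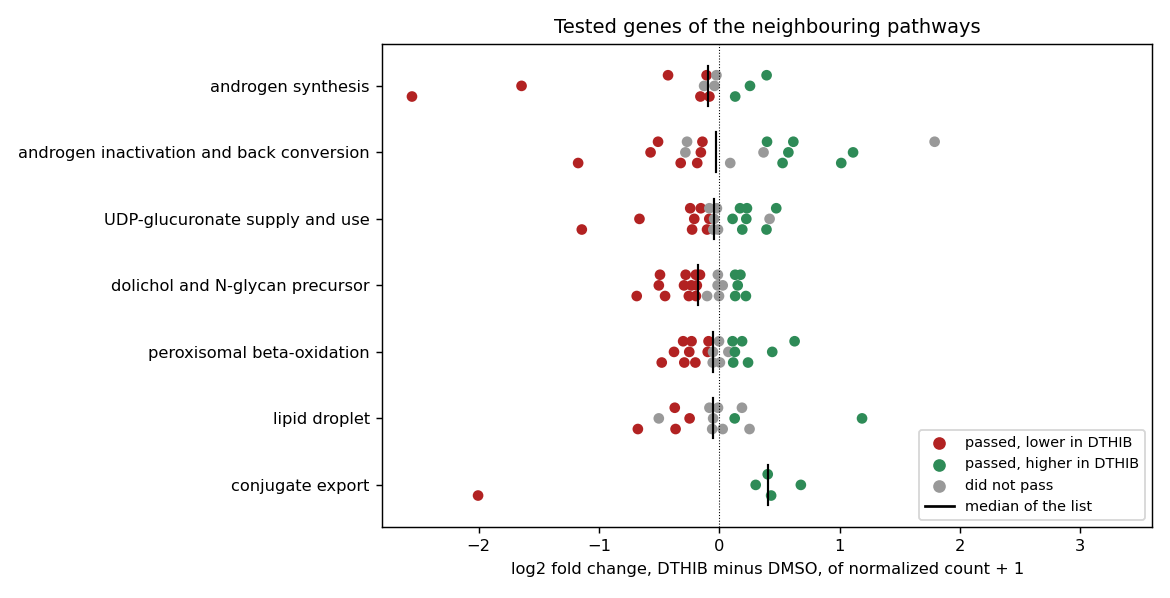
Log2 fold changes, DTHIB minus DMSO, of the measurable genes in 7 pathway lists; each point is a gene, red if it passed and fell, green if it passed and rose and grey if it did not pass, and the black line is the list's median. Conjugate export has a median of 0.40 and the other lists have medians between -0.17 and -0.03; ABCG2 is the low point of conjugate export, at -2.01.

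Since the liver is the main site of UGT2B expression, hepatocyte markers were read as well. Of 12, 5 were measurable, 2 rose and 2 fell, and their summed level was 455 to 533 normalized counts in DTHIB and 392 to 442 in DMSO. Albumin, ALB, fell to 19.7 ± 4.59 in DTHIB, against 62.8 ± 6.38 in DMSO (SD, n = 4), and transthyretin, TTR, to 46.8 ± 14.8 in DTHIB, against 92.6 ± 5.55 in DMSO. CYP2E1 (0.83) rose, and APOA2, APOB and SERPINA1 averaged at most 1.21 normalized counts in either group. The part of these genes in the UGT2B values was not tested.

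By the correlation of log2 values over the 8 libraries, the genes most like the UGT2B genes, among those with a mean of at least 100, were FMNL3 for UGT2B11 (r = 0.992), ARHGAP31 for UGT2B15 (r = 0.984), TMPRSS4 for UGT2B17 (r = 0.989) and PKIB for UGT2B28 (r = 0.990). The next were TRIM38 and PRKAA2, SRFBP1 and IKBKE, RCN3 and SCFD2, and ENPP1, in the same order of UGT2B genes. These values describe 8 libraries in 2 groups, so they mostly carry the difference between the groups, and each gene named here had a negative log2 fold change, between -0.62 and -0.16.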

How the data were processed

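The submitters' processing notes name the build GRCh38 and, with no order or settings, DESeq2 2.11.40.2, featureCounts 1.6.3, HISAT2 2.1.0, StringTie 1.3.4 and Trimmomatic 0.36.5. By its name, the signal the authors deposited per gene and library is a DESeq2-normalized count. The authors' deposited result table has no header and was read, by the usual column order of DESeq2, as mean signal, log2 fold change, standard error and Wald score, p-value and adjusted p-value.

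All values of a library were whole multiples of its smallest step (100% within 0.01), which gave back whole reads. The log2(normalized count + 1) was fitted with limma 3.58.1 under R 4.3.3 (expression trend, no covariates, two-sided) over 17194 genes with a mean of at least 10. A replicate pair showed at least 2.39 chi-square per gene, so none agreed within sampling noise. The script was tested on simulated counts. Positions and transcripts come from GENCODE release 29 and coding sequences were aligned with mafft 7.526; promoters come from RefSeq.

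The choices varied were the pseudocount (0.5 and 5), the filter (none, or 50), TMM and quantile scaling, edgeR 4.0.16 and DESeq2 1.42.0 on whole reads, the replicate number as a block and each library left out. Members and lists were chosen with earlier results of these data known. Named were all 10 members, the measurable neighbours within 1 Mb, up to 4 genes per list with the smallest adjusted p, and the 3 genes most correlated with each UGT2B gene. Low-level genes, AKR1C1, PGM1, SLC35D1, UGT2B4, UGT2B7, the risen genes of the dolichol list and overlapping genes were added after their values were seen. A few genes that this rule names are not reported here.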

Additional observations from a re-analysis of the deposited data

Results flagged for a closer look

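In 34 groups of 4 libraries examined for a value far from the rest, 2 stood out, where chance flags about 1 in 20. The UGT2B15 value of DTHIB replicate 3 was 5.99 normalized counts, against 17.0 to 17.7 in the other 3 DTHIB libraries. The pseudogene ENSG00000270228, a neighbour of the UGT2B genes, had 26.8 normalized counts in DMSO replicate 2, against 30.6 to 31.1 in the other 3 DMSO libraries.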

How the results depend on the processing

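The 7 genes that fell kept their direction and passed in every alternative in which they were tested. UGT2B15 was not tested at a mean of at least 50, which left 6. Without a filter the count was 8, because it took in UGT2B10, which is not measurable and is not counted as fallen here. SRD5A1 passed under quantile normalization and without DMSO replicate 3, so that 1 gene was called higher there and 0 otherwise. Genes with no call changed sign when single libraries were left out: HSD17B4 ranged from -0.0153 to 0.0208, KRT14 from -0.19 to 0.14, UBA6-DT from -0.11 to 0.0148, ENSG00000270228 from -0.0984 to 0.19 and POLR2MP1 from -0.23 to 0.30. POLR2MP1 was -0.00042 with a pseudocount of 0.5, and under quantile normalization it was -0.14 and ENSG00000270228 -0.0491. Quantile normalization also moved 2 called genes by over 1.5 times, UBA6 to -0.12 and GUSB to -0.14. UGT2B11 against UGT2B17 ranged from -0.12 to 0.17, and the UGT2B sum from -0.85 to -0.72, without single libraries. With the replicate block 11058 genes were called, against 11110 without it, and the UGT2B sum stayed at -0.77. The deviations of same-numbered libraries correlated at -0.07 to 0.01. These values show no pairing by number, but they cannot exclude a shared culture or day. Causes were not tested. Depth limits UGT2B10, with 3 DTHIB reads, and UGT2B15, with 57. It also limits the folds of TMPRSS11E, HSD3B1 and KRT15, whose DTHIB means are 4.10, 6.13 and 6.09.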
